A study of Brachypodium distachyon with 12 samples.

Results

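Protoxylem is the first xylem that a vascular bundle (VB) makes. Its cells lay down a patterned secondary wall of cellulose, xylan and lignin and then digest their contents, so that an empty water-conducting tube is left. Bundles are set in parenchyma, the thin-walled ground tissue of the stem, and a bundle that has more protoxylem cells is taken to be more mature.

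The transcripts described here were those whose level was ordered by the number of protoxylem cells of the bundle. They were chosen on their values in the 9 VB libraries. Levels were CPM, the pairs of a transcript per 1000000 pairs of the library, with *Bradi2g12067.1*, a single transcript that took a large part of every library, left out of the counts and the totals. A transcript was a member if its mean over the 9 VB libraries was 2 CPM or more, if log2(CPM + 1) was higher in VB type 3 than in VB type 1 in each of the replicate numbers 1, 2 and 3, if the group means were ordered type 1, type 2, type 3, and if the means of type 3 and type 1 differed by 1 or more. Of the 34309 other transcripts counted, 17860 reached the minimum and 400 were members. In what follows, the total difference is the mean log2(CPM + 1) of VB type 3 minus that of VB type 1, and since it chose the members it is given as a description.

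All 12 libraries came from untreated wild-type Bd21-3 plants of *Brachypodium distachyon*, a small grass. The labels give an age of 19 days and the study's methods 20 days after germination. Bundles were cut from the shoot apex by laser capture microdissection, with 3 libraries for each of VB type 1 (no visible protoxylem cell), VB type 2 (1 to 2 protoxylem cells) and VB type 3 (3 to 4 by the labels). The other 3 libraries, labelled as the control, held parenchyma from the centre of the stem. The tissue label of all 12 is meristem. Each replicate pooled 10 to 20 dissected elements from 1 to 3 plants and each library was made from 500 pg of RNA. In such pooled tissue, fewer cells of a type and less RNA per cell cannot be told apart.

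The VB libraries held 16907265 to 24210355 counted pairs, of which 26.1% to 54.2% belonged to *Bradi2g12067.1*. Outside it they held 9080187 to 13886473 pairs. Parenchyma replicate 3 stood apart: *Bradi2g12067.1* took 86.3% of it, and 1768043 pairs were left, against 18609862 and 23109703 in the other parenchyma libraries. In that library 3 pairs correspond to 1.70 CPM, against at most 0.33 CPM in any VB library, and 119 of the 400 members had 0 pairs there (29.8%, against 19.4% of the 17860 transcripts past the minimum). The tissue was checked with 4 genes that the study names. *XCP1* (*Bradi2g39320.2*), whose Arabidopsis best hit is a xylem cysteine peptidase that works in dying vessel cells, lay at 312.6 to 1965 CPM in the VB libraries and at 2.34, 29.1 and 13.6 CPM in parenchyma. *TMO6* (*Bradi1g26570.1*), *PXY* (*Bradi3g17567.1*) and *PIN1a* (*Bradi1g45020.1*) were also higher in every VB library than in every parenchyma library. None of the 4 was a member: their total differences were 0.21, -1.11, 0.33 and 0.80.

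The number of members was set beside the numbers that the same rule gives when the VB type labels are rearranged within each replicate number, in every one of the 6 orders that each replicate number allows. The labelled order gave 400 transcripts. The rearranged labels gave from 340 to 874, with a median of 574.5, and 93.5% of the arrangements gave 400 or more (exact permutation test of the count, one-sided for more members, p = 0.935). The number of transcripts ordered by protoxylem number was thus lower than under most rearranged labels. The comparison is of the number alone, which a small set of ordered transcripts need not move, and it says nothing of any single member. The reversed order, which takes transcripts highest in VB type 1, gave 702.

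**Figure D1:**
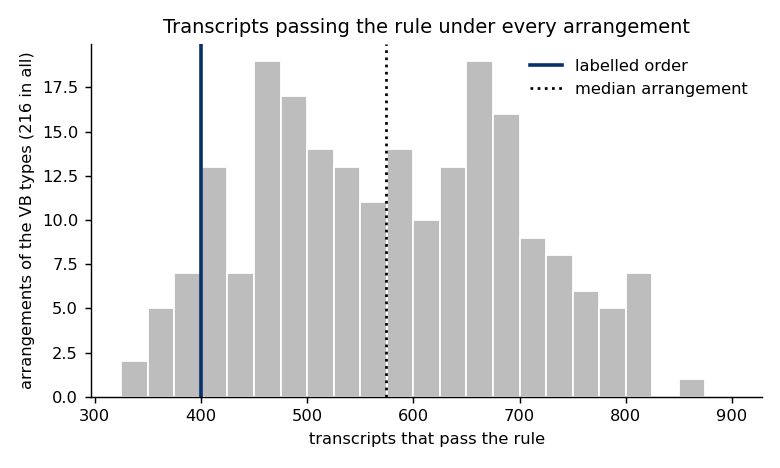
Number of transcripts that pass the rule (x axis) under every arrangement of the VB type labels within replicate numbers, with the number of arrangements on the y axis. The solid line marks the labelled order, 400 transcripts, and the dotted line the median of the arrangements, 574.5, so the labelled order lies at the low end of the distribution.

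A replicate that had no part in the choice gave a second view of the same question. For each replicate number in turn, transcripts were chosen by the same rule on the other 2 numbers, and their level in VB type 3 was compared with VB type 1 in the replicate left out. With replicate 1 left out, 1060 transcripts were chosen, of which 40.2% were higher in VB type 3 in replicate 1, against 44.9% of the 17678 transcripts past the same minimum. With replicate 2 left out, 49.6% of 704 were higher, against 48.9% of 17810. With replicate 3 left out, 50.5% of 648 were higher, against 49.2% of 17782.

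The direction chosen on 2 replicate numbers was therefore found in the remaining one about as often as among all transcripts, and less often in replicate 1. The median difference of the chosen transcripts in the replicate left out was -0.23, 0.00 and 0.01 on the log2 scale. A difference of 1 or more towards VB type 3 was seen in 12.2%, 21.2% and 22.7% of them, and in 13.7%, 15.7% and 17.7% of all. No test was run on these shares, since transcripts of a library are not independent replicates.

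**Figure D2:**
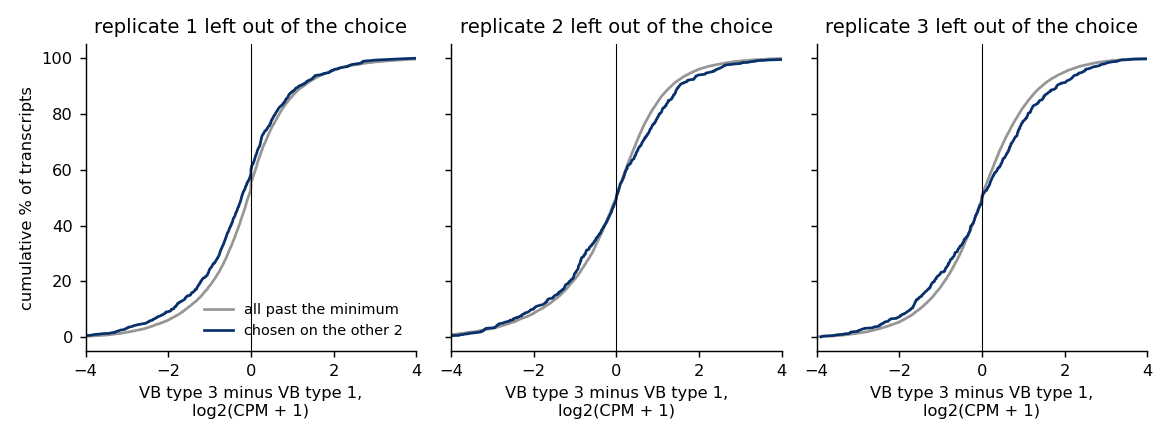
Cumulative share of transcripts (y axis, %) by their difference between VB type 3 and VB type 1 in a replicate that was left out of the choice (x axis, log2(CPM + 1)), for transcripts chosen on the other 2 replicate numbers (dark line) and all transcripts past the minimum (grey line). The lines cross 0 close to each other: 40.2%, 49.6% and 50.5% of the chosen transcripts lie above 0, against 44.9%, 48.9% and 49.2% of all.

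Between VB type 3 and VB type 1, the quasi-likelihood test of edgeR called none of 17448 transcripts at an adjusted p under 0.05 (0.0% called), and so none of the 382 members that passed its filter. At an unadjusted p under 0.05 there were 469 transcripts, of which 93 were members. The likelihood ratio test of edgeR called 24 transcripts, 7 of them higher in VB type 3, of which 6 were members, and DESeq2 called 21, 9 of them higher, of which 8 were members. These tests use the contrast that chose the members and add nothing to it. Every VB type 3 library lay above every VB type 1 library for 198 of the 400 members (49.5%, against 3.68% of the transcripts past the minimum, a gap that the rule makes).

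Among themselves the members had small and uneven steps. The median total difference was 1.39 and the largest 3.90, with 233 members under 1.5 and 48 at 2 or more. The step from type 1 to type 2 was the larger one in 195 members and the step from type 2 to type 3 in 205, with medians of 0.69 and 0.71. The highest of the 9 VB libraries was a type 3 library for 294 members and a type 2 library for 106. VB type 1 replicate 3 was the lowest library for 160 members, more than VB type 1 replicates 1 and 2 with 71 and 69. It also had the lowest median log2(CPM + 1) of the 9 VB libraries over all transcripts past the minimum, 4.16. The other VB libraries had 4.27 to 4.49. The difference was largest in replicate 3 for 172 members, in replicate 2 for 135 and in replicate 1 for 93. Neither count was made over all transcripts.

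**Figure D3:**
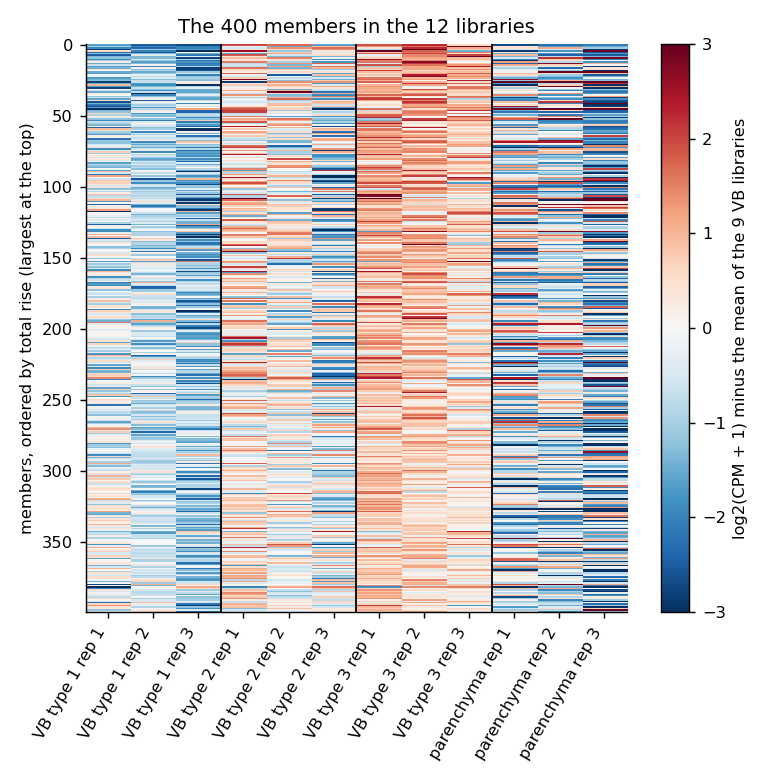
The 400 members (rows, ordered by total difference) in the 12 libraries (columns), as log2(CPM + 1) minus the mean of the 9 VB libraries (colour scale from -3 to 3). The change from blue to red across the VB types is what the rule chose. VB type 1 replicate 3, the lowest library for 160 members, is the bluest of its group. It also has the lowest VB median over all transcripts past the minimum. The parenchyma columns hold both colours.

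The members were lower in level than the transcripts they were drawn from, and alike in length. Their median transcript length was 1910 bases, against 1911 for all those past the minimum. Their median level was 12.0 CPM, against 21.1, and 18.5% lay under 5 CPM, against 15.2%. The share with 3 pairs or fewer in at least 1 VB type 1 library, where the rule asks for a low value, was 22.5%, against 9.32%. By their identifiers, the members were spread over the 5 chromosomes, with 108, 90, 83, 72 and 47 on chromosomes 1 to 5, which is 2.04%, 2.21%, 2.06%, 2.56% and 2.85% of the transcripts past the minimum there.

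The VB types of 2 members, picked out after their values were seen, did not overlap at either step. The rule itself favours this order. The share of all transcripts past the minimum that do so was not computed, so the separation is given as a description. *Bradi1g26000.2* has as its Arabidopsis best hit *GPT2*, a translocator that brings glucose 6-phosphate into plastids. Its levels were 21.9, 21.9 and 29.3 CPM in VB type 1, 78.4, 101.1 and 88.4 CPM in type 2 and 122.9, 116.3 and 123.8 CPM in type 3. The 3 types were separate and the replicates of each lay close together. Parenchyma held 59.9, 534.3 and 1018 CPM, so 2 parenchyma libraries were above every VB library and replicate 1 was below types 2 and 3. Averaged over the VB types, the transcript was lower than in parenchyma by a log2 fold change of -3.59 ± 0.51 (SE, edgeR quasi-likelihood test, adjusted p = 0.00133), a call that held when any single library was left out. The other, *Bradi1g29400.1*, which has no annotation in the tables used, lay at 18.8, 16.6 and 15.6 CPM in type 1, at 26.9, 33.2 and 25.3 CPM in type 2, and at 35.4, 50.9 and 34.7 CPM in type 3. Its parenchyma levels of 11.3, 25.8 and 57.7 CPM spanned that whole range.

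**Figure D4:**
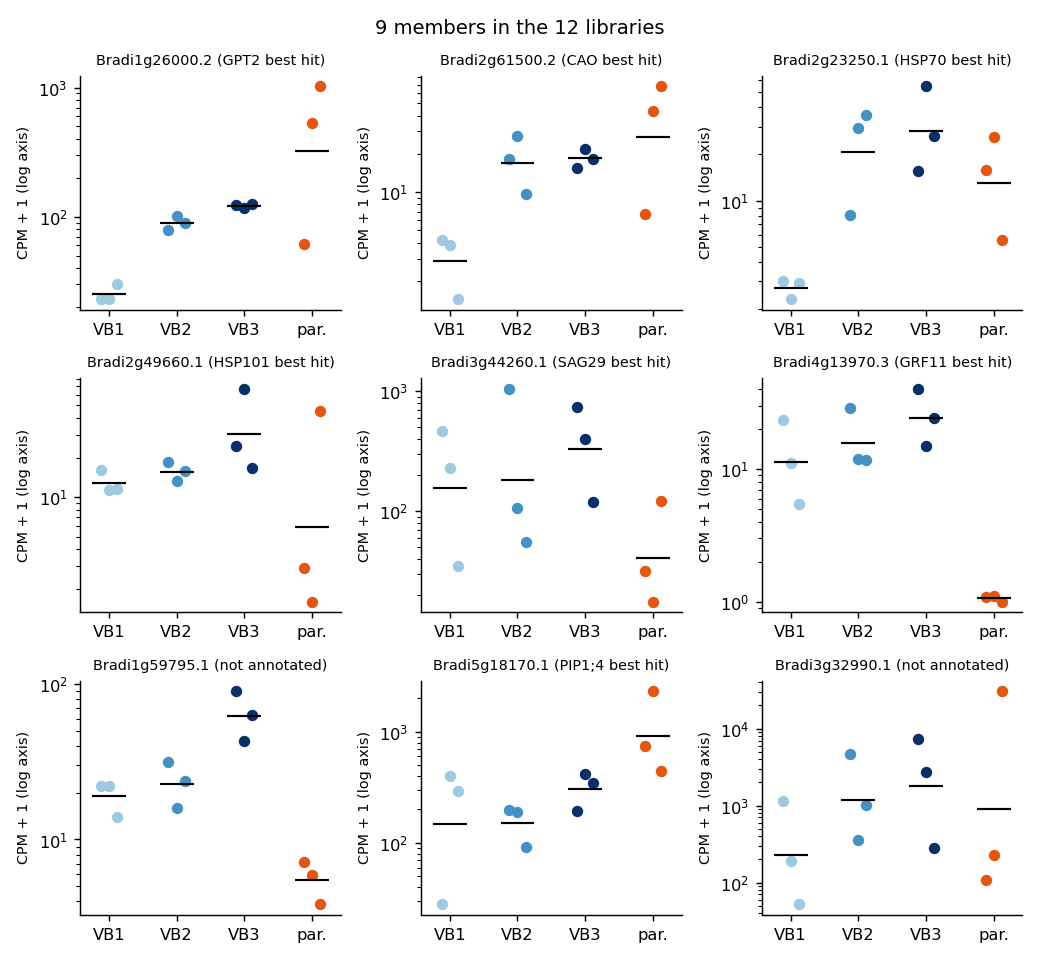
CPM + 1 on a log axis for 9 members in VB types 1, 2 and 3 (VB1 to VB3) and parenchyma (par.); each point is a library and each bar the mean of the 3 log values of a group. The type 1, 2 and 3 libraries of *Bradi1g26000.2* do not overlap, *Bradi4g13970.3* and *Bradi1g59795.1* are lower in all 3 parenchyma libraries than in any VB library, and *Bradi3g32990.1* ranges from 281.5 to 7309 CPM within VB type 3.

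Of the 10 members with the largest total differences, 9 were under 5 CPM in every VB type 1 library. *Bradi4g09141.1*, with no annotation, had the largest, 3.90. It lay at 0.193, 0.162 and 0.00 CPM in type 1, at 6.05, 10.2 and 0.00 CPM in type 2 and at 18.0, 12.9 and 16.4 CPM in type 3. Types 1 and 3 were far apart, type 2 held both 0 and intermediate values, and parenchyma, at 15.5, 14.3 and 116.5 CPM, was within or above the range of type 3. *Bradi1g29680.1* and *Bradi4g28425.1*, also without annotation, had differences of 3.86 and 3.70. Both were at 1.16 CPM or less in every type 1 library, and in type 3 they lay at 23.1, 30.2 and 8.73 CPM and at 10.5, 12.8 and 31.2 CPM. In parenchyma *Bradi1g29680.1* had at most 6 pairs in a library, whereas *Bradi4g28425.1* had 4.72 CPM in replicate 1. Of the remaining members of this group, *Bradi3g37486.1*, *Bradi2g31733.1*, *Bradi1g50260.2* and *Bradi1g33801.1* had no annotation and total differences of 2.72 to 2.93.

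A total of 3 members matched the list of heat shock genes. The list holds heat shock transcription factors besides proteins that help refold or clear damaged proteins. Of the 3 members, 2 were in the group with the largest differences. *Bradi2g23250.1*, with a heat shock protein 70 as its Arabidopsis best hit, lay at 2.03, 1.30 and 1.94 CPM in type 1, at 7.09, 28.6 and 34.7 CPM in type 2 and at 14.4, 53.5 and 25 CPM in type 3. Every type 2 and type 3 library was above every type 1 library, and parenchyma, at 14.7, 24.7 and 4.52 CPM, lay between type 1 and the upper values of types 2 and 3. *Bradi3g60100.1*, a small HSP20-like chaperone by its best hit, lay at 0.00, 2.35 and 1.22 CPM in type 1, at 8.90, 9.47 and 17.7 CPM in type 2 and at 2.75, 81.5 and 11.0 CPM in type 3. *Bradi2g49660.1*, whose best hit is the disaggregase *HSP101*, lay at 15.0, 10.3 and 10.6 CPM, then at 17.4, 12.3 and 14.7 CPM, and at 23.7, 65.8 and 15.6 CPM in type 3. All 3 had their highest value in VB type 3 replicate 2, and types 2 and 3 overlapped in each.

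The heat shock list as a whole held transcripts ordered both ways, with total differences from -3.69 to 3.35. Of its 19 transcripts past the minimum, 3 were members and 3 met the reversed rule. Over all 17860 past the minimum, 400 were members (2.24%) and 702 met the reversed rule. Among the 1359 named ones, 25 were members and 102 met the reversed rule. Both shares of the list were above these, a difference that was not tested. The median total difference of the list was 0.06, against -0.03 for all transcripts past the minimum and -0.20 for the named ones. The summed level of the list was 779.0 to 1068 CPM in type 1, 967.5 to 1051 CPM in type 2 and 791.2 to 1096 CPM in type 3. Its largest parts were *Bradi3g28070.1* and *Bradi1g75520.1*, with means of 313.2 and 181.5 CPM over the VB libraries. The sum therefore says little of the 3 members. The part of VB type 3 replicate 2 in the values of the 3 members was not tested.

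The most abundant members overlapped widely between VB types. The 5 described here were taken by mean CPM over the VB libraries, a ranking of counted pairs that is not adjusted for length. *Bradi3g32990.1*, without annotation, had the highest. Its 9 VB levels were 1162, 190.5 and 51.2 CPM in type 1, 4646, 354.8 and 1017 CPM in type 2 and 7309, 2705 and 281.5 CPM in type 3, with 107.7, 226.6 and 30440 CPM in parenchyma. Replicates 1 and 3 of VB type 3 differed more than the group means did. *Bradi4g04200.1*, also without annotation, lay at 1169, 789.8 and 301.9 CPM in type 1 and at 2229, 2134 and 677.5 CPM in type 3, so that type 3 replicate 3 fell below 2 type 1 libraries. Per kilobase of transcript, *Bradi4g04200.1* had the higher mean level of the pair, 1379 CPM per kb against 1168. *Bradi5g22907.1* and *Bradi2g22787.1* had total differences of 1.2 and 1.04 and overlapped between all 3 VB types.

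Another of these, *Bradi3g44260.1*, was the 1 member among 8 transcripts of the phloem list past the minimum, whose median total difference was -0.33. Its Arabidopsis best hit is *SAG29*, a sugar transporter of the SWEET family that is known from ageing leaves. It lay at 470.0, 225.9 and 33.7 CPM in type 1, at 1046, 105.7 and 54.0 CPM in type 2, at 741.8, 397.6 and 117.3 CPM in type 3 and at 30.9, 16.5 and 121.0 CPM in parenchyma. Within each VB type replicate 1 was highest and replicate 3 lowest, and the 3 types overlapped throughout. Against parenchyma its log2 fold change was 2.04 ± 1.03 (SE) with an adjusted p of 0.317 in edgeR's quasi-likelihood test.

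Names were available for few transcripts. The deposited tables give identifiers alone, and the study's shortened supplementary tables name 1359 of the transcripts past the minimum and 25 of the 400 members (6.25%, against 7.61% of all past the minimum). Those tables list genes by the study's own tests, in part on these libraries, so the named transcripts are not an even sample. The members made up 1.84% of the named transcripts and 2.24% of all past the minimum.

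Of 12 lists of genes matched on those names, 5 held a member. No member was in the lignin list (0 of 9 past the minimum), the auxin list (0 of 21) or the list for cytokinin, gibberellin and brassinosteroid (0 of 13), and the single transcript of the list for death of tracheary cells, *XCP1*, was none either. Photosynthesis (0 of 36), cuticle (0 of 21) and the cytosolic ribosome (0 of 11) also held none. With members at 1.84% of the named transcripts, lists this short can hold none without differing from the rest. The median total difference was -0.23 in the lignin list, 0.00 in the auxin list, -0.54 in the list for cytokinin, gibberellin and brassinosteroid, 0.15 in photosynthesis, -0.24 in cuticle and -0.06 in the ribosome, against -0.20 over all named transcripts. Photosynthesis genes, which mark green tissue, summed to 4480 to 8253 CPM in type 1, 7465 to 10372 CPM in type 2, 5199 to 9465 CPM in type 3 and 18283 to 37510 CPM in parenchyma. The VB types overlapped in that sum, and its part in the levels of the members was not tested.

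The list for secondary wall polysaccharides held 1 member of 11 past the minimum, with a median total difference of 0.05. This was *Bradi5g15020.1*, whose best hit *TBL11* belongs to a family of enzymes that acetylate wall polysaccharides in Arabidopsis. It lay at 0.772, 3.41 and 2.52 CPM in type 1, at 6.65, 2.75 and 15.1 CPM in type 2, at 10.5, 15.4 and 5.86 CPM in type 3 and at 2.12, 13.9 and 11.9 CPM in parenchyma. Type 3 was above type 1 in every library, type 2 overlapped both, and parenchyma covered nearly the same range.

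Among 71 transcription factors past the minimum, 2 were members and 3 met the reversed rule, and the median total difference was -0.39. Over all 1359 named transcripts past the minimum, 25 were members and 102 met the reversed rule, with a median of -0.20. *Bradi1g12770.2*, a basic helix-loop-helix factor by its best hit, lay at 3.67, 7.88 and 33.5 CPM in type 1, at 59.1, 42.9 and 11.8 CPM in type 2 and at 57.5, 14.8 and 47.7 CPM in type 3. Parenchyma held 56.9, 181.9 and 317.9 CPM of it. It was called lower in VBs by a log2 fold change of -3.18 ± 0.65 (SE, adjusted p = 0.0117, quasi-likelihood test). Without parenchyma replicate 3 the adjusted p was 0.116. *Bradi3g00300.1*, a basic leucine zipper factor, lay at 27.6, 10.2 and 0.936 CPM in type 1, at 47.2, 4.93 and 5.56 CPM in type 2 and at 34.9, 28.1 and 18.8 CPM in type 3. Its parenchyma levels were 18.7, 0.00 and 120.5 CPM. The VB types overlapped for the helix-loop-helix factor at both steps, and so did those for the zipper factor. The cell division list, with a median total difference of -0.27, held 1 member of 4, *Bradi3g29530.2*, a DNA ligase 1 by its best hit, which joins new DNA strands. Its levels were 63.6, 25.2 and 17.1 CPM in type 1, 88.6, 60.7 and 16.4 CPM in type 2 and 87.6, 65.4 and 53.4 CPM in type 3, with replicate 1 of type 1 above replicate 3 of type 3.

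Parenchyma played no part in the rule, so the members could be compared with it. The other side of that contrast, the VB mean, did enter the rule through the minimum of 2 CPM. A transcript found in parenchyma alone could thus not be a member. In edgeR's quasi-likelihood test of the mean of the VB types against parenchyma, 1.25% of 16706 transcripts were called higher in VBs and 3.78% lower, at an adjusted p under 0.05. Of the 376 members tested, 5 were called higher (1.33%) and 12 lower (3.19%), close to the background in both directions. The median log2 fold change was 0.10 for the members, 0.01 for all transcripts tested and 0.02 for the 16577 of these past the same minimum. The remaining 24 members did not pass the filter on low counts.

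**Figure D5:**
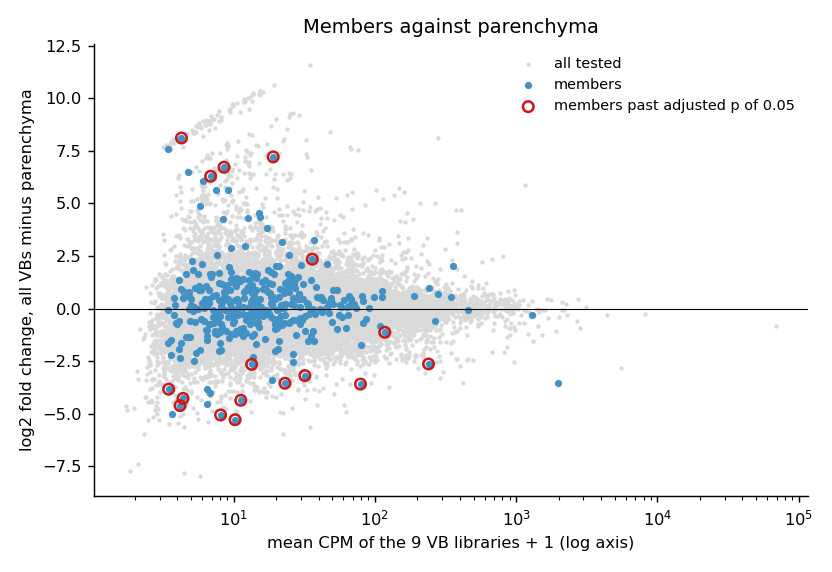
Log2 fold change of all VBs minus parenchyma (y axis) against the mean CPM of the 9 VB libraries plus 1 (x axis, log) for all transcripts tested (grey) and the 376 members tested (blue); rings mark the 17 members called at an adjusted p under 0.05. Members lie on both sides of 0, with 5 rings above and 12 below.

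By counts of libraries, all 9 VB libraries lay above all 3 parenchyma libraries for 16 members (4.00%), against 5.16% of the transcripts past the minimum, and below them for 3 members (0.75%), a smaller share than the 2.5% of all; that difference was not tested. By medians, parenchyma was below VB type 1 in 174 members, between types 1 and 3 in 176 and above type 3 in 50. This split depends on the rule, which sets type 1 low and type 3 high. It was not counted over all transcripts, so it is read for nothing about the members. There were 4 members with 0 pairs in all 3 parenchyma libraries (1.00%, against 1.77%).

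The 5 members that were higher in VBs did not overlap with parenchyma in any library. All but *Bradi1g59795.1* had at most 2 pairs in each parenchyma library. Those passed the minimum and the filter on low counts through their VB levels alone. Their calls and their separation from parenchyma are therefore given as a description. *Bradi4g13970.3*, whose best hit *GRF11* is a 14-3-3 protein that binds phosphorylated partners, lay at 22.4, 10.1 and 4.46 CPM in type 1, at 27.7, 10.9 and 10.7 CPM in type 2 and at 39.2, 14.0 and 23.2 CPM in type 3, with 2, 2 and 0 pairs in the parenchyma libraries. It was present in every VB library and near the limit of detection in parenchyma (adjusted p = 0.002, quasi-likelihood test). *Bradi1g59795.1*, without annotation, lay at 21.2, 21.0 and 13 CPM in type 1, at 30.4, 15.0 and 22.7 CPM in type 2, at 88.7, 41.8 and 62.2 CPM in type 3 and at 6.14, 4.94 and 2.83 CPM in parenchyma. Types 1 and 2 overlapped, type 3 stood above both, and the log2 fold change of VBs over parenchyma was 2.35 ± 0.50 (SE, adjusted p = 0.0148, quasi-likelihood test). Both calls held when any single library was left out.

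The other 3 were at low levels and have no annotation. *Bradi2g03437.1* lay at 0.864 to 6.17 CPM in the VB libraries and had 0 pairs in all 3 parenchyma libraries, which makes its mean at least 4.95-fold higher than the mean of the levels that 3 pairs per parenchyma library would give. *Bradi3g44167.1*, at 1.04 to 14.8 CPM in VBs, and *Bradi4g23967.1*, at 0.386 to 21.6 CPM, had 1, 1 and 0 pairs in parenchyma, too few for a fold. Their adjusted p-values in the quasi-likelihood test were 0.0188, 0.0277 and 0.0392, and each was lost when parenchyma replicate 1 or 2 was left out, with an adjusted p of at most 0.120. *Bradi3g44167.1* and *Bradi4g23967.1* were also lost without parenchyma replicate 3. *Bradi4g23967.1* was lost in 6 of the 12 fits that left out a library. With the replicate block, the adjusted p of these 2 was 0.0575 and 0.0586 in the same test, and that of *Bradi2g03437.1* was 0.0458.

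Of the 12 members that were lower in VBs than in parenchyma, 3 did not overlap. *Bradi5g18170.1* has as its best hit the aquaporin *PIP1;4*, a water channel of the plasma membrane. It lay at 27.1, 402.6 and 289.3 CPM in type 1, at 196.7, 189.4 and 90.7 CPM in type 2, at 192.4, 419.7 and 342.5 CPM in type 3 and at 741.9, 2304 and 446.8 CPM in parenchyma. Apart from the single low library of type 1, replicate 1, the VB types overlapped, and all lay under parenchyma by a log2 fold change of -2.63 ± 0.56 (SE, adjusted p = 0.0156, quasi-likelihood test). Without parenchyma replicate 2 the adjusted p was 0.156.

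*Bradi4g29030.1*, a haloacid dehalogenase-like hydrolase by its best hit, lay at 0.00, 3.49 and 7.42 CPM in type 1, at 0.00, 17.7 and 17.1 CPM in type 2, at 23.5, 13.6 and 9.56 CPM in type 3 and at 118.5, 122.1 and 173.1 CPM in parenchyma. Its log2 fold change was -4.35 ± 0.97 (SE, adjusted p = 0.0188, quasi-likelihood test, and 0.0814 without parenchyma replicate 3). *Bradi3g35680.1*, with a domain like the N-terminus of DPP6, lay at 0.676, 6.74 and 30.1 CPM in type 1, at 48.7, 21.2 and 0.512 CPM in type 2, at 41.6, 19.0 and 30.7 CPM in type 3 and at 96.1, 377.2 and 108.0 CPM in parenchyma. Even the highest bundle was under the lowest parenchyma library in both, and the log2 fold change of *Bradi3g35680.1* was -3.55 ± 0.87 (SE, adjusted p = 0.0316), lost in 7 of the 12 fits that left out a library.

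Among the 9 that overlapped was *Bradi2g61500.2*, whose best hit *CAO* makes chlorophyll b. It lay at 3.19, 2.84 and 0.432 CPM in type 1, at 17.3, 26.6 and 8.63 CPM in type 2, at 14.6, 21.0 and 17.3 CPM in type 3 and at 5.71, 42.6 and 66.7 CPM in parenchyma. Type 1 was below every other library, and types 2 and 3 overlapped. The call was not firm: the adjusted p of 0.0359 was lost in 9 of the 12 fits that left out a library. *Bradi2g62020.1*, without annotation, was lower by a log2 fold change of -5.28 ± 1.08 (SE, adjusted p = 0.0117, quasi-likelihood test). Parenchyma replicate 3 held 541.8 CPM of it, against 6.32 and 1.02 CPM in replicates 1 and 2, and without that library the adjusted p was 0.744.

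Many of these calls rested on a single library. Without parenchyma replicate 3, the library with the fewest pairs, 6 members were called lower in place of 12 and 4 higher in place of 5, and 9 of the 17 calls were lost. Of the 17 calls, 3 held in every fit that left out a library, *Bradi1g26000.2*, *Bradi1g59795.1* and *Bradi4g13970.3*.

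The rule's minimum difference of 1 fell in a continuous range of values. Just inside it were *Bradi4g03160.1*, *Bradi5g16330.1* and *Bradi3g30193.1*, with total differences of 1.00 and mean levels in type 1 and type 3 of 34.7 and 57.3 CPM, 18.5 and 36.0 CPM, and 4.70 and 8.74 CPM. Just outside it were *Bradi4g03560.1*, *Bradi1g40178.1* and *Bradi2g22090.1*, at 0.999, 0.998 and 0.998, with 9.61 and 19.4 CPM, 16.0 and 30.2 CPM, and 41 and 98.9 CPM. The transcripts on either side of the limit did not stand apart in level or in order.

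Other members with names had the ordered values that the rule asks for and no call against parenchyma. *Bradi4g45010.1*, an asparagine synthetase by its best hit *ASN1*, which stores nitrogen as asparagine, lay at 29.7, 23.3 and 9.65 CPM in type 1, at 27.7, 23.0 and 50.2 CPM in type 2, at 42, 74.1 and 43.0 CPM in type 3 and at 87.6, 136.4 and 16.4 CPM in parenchyma. All type 3 libraries were above all type 1 libraries, and type 2 overlapped both. *Bradi2g11990.1*, by its best hit the splicing factor *SR30*, lay at 2.61, 5.03 and 7.71 CPM, then at 7.0, 14.5 and 11.3 CPM, and at 8.81, 29.9 and 25.2 CPM in type 3, with 5.88, 1.83 and 3.96 CPM in parenchyma. *Bradi2g02880.1*, a mitochondrial carrier by its best hit, lay at 6.49 to 22.9 CPM in all VB libraries and at 1.47, 0.00 and 0.00 CPM in parenchyma, with an adjusted p of 0.0629 in edgeR's quasi-likelihood test.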

How the data were processed

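Each library was made from 500 pg of RNA and read as pairs. The labels name a low-input SMARTer kit, version 3, and no strand, whereas the study's methods name another version and stranded libraries; if strand was not kept, overlapping transcripts cannot be told apart. Per the file headers the authors counted pairs and single reads per transcript, and the labels name Bowtie2, version not given in the sources used here. The deposited counts of pairs were used as they were; the deposited single-read counts, which already hold both reads of a pair, served only in alternatives. Transcript length, in bases, is a column of the deposited files.

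CPM were computed without *Bradi2g12067.1*, with a pseudocount of 1 on the log2 scale. Counts of all transcripts, *Bradi2g12067.1* included, were fitted with edgeR 4.0.16 (R 4.3.3; TMM scaling, quasi-likelihood test, 1 CPM or more in at least 6 of 12 or 3 of 6 libraries, Benjamini-Hochberg adjustment), with biological coefficients of variation of 0.803 and 0.771; DESeq2 1.42.0 and edgeR's likelihood ratio test were alternatives. Fits and rule were run on simulated counts with 200 transcripts changed, to check the code. The simulated spread was smaller than that of these data, so the run does not show what the tests can detect here. Replicate numbers were not used as pairs in the main fits, whereas the rule, the arrangements and the replicate left out compared VB types within them. The p-values of the fits measure the spread between libraries from 1 to 3 plants each.

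The members, gene lists and tests were chosen with earlier results of these data known, and the patterns of the lists were widened once only the study's names were at hand. Text names the 10 members with the largest differences, the 5 of highest CPM, up to 3 per list, the called members that do not overlap with parenchyma, 3 transcripts on either side of the limit and 4 tissue checks; others were chosen after their values were seen. Names come from 3 supplementary tables of the study. A further table was not used for names, since of 524 identifiers it shared with another none had the same Arabidopsis locus, while between the tables used 57 of 57 shared identifiers had the same locus and, for the third table, 8 of 8 the same rice description. Columns of the authors' own comparisons were not used. Sequences are not shown, as none could be matched to these identifiers, and the planned search for promoter words was not run.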

Additional observations from a re-analysis of the deposited data

How the results depend on the processing

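The count of 400 members stayed within 1.5 times under TMM-scaled totals, pseudocounts of 0.5 and 2, no minimum, a minimum of 5 CPM and added single-read counts. It was 174 with *Bradi2g12067.1* kept in the totals (158 of them shared), 167 with a total difference of 1.5 or more and 198 with every VB type 3 library above every VB type 1 library. Leaving out a replicate number gave 648 to 1060. Single-read counts in place of pairs, an alternative chosen after seeing the data, gave 413. Under every setting more than 50% of the arrangements gave at least as many transcripts as the labelled order. The share found in a replicate left out was 49.6% and 50.5% for replicates 2 and 3, against 40.2% for replicate 1.

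Between VBs and parenchyma, 839 transcripts were called (24.8% of them higher in VBs), 1829 by DESeq2 (47.7%), 1676 by the likelihood ratio test (35.3%) and 145 with library totals (46.9%), a scaling that moved the median of all transcripts from 0.01 to 0.18. Members called higher, 5 in the main test, were 24, 17 and 1 under these settings, 2 with no filter and 3 with the replicate block. Members called lower, 12 in the main test, were 20, 24 and 3, and 6 with the replicate block. Over all transcripts tested, DESeq2 called 5.27% higher and 5.77% lower, and the likelihood ratio test 3.54% and 6.49%. Of 16706 transcripts, library totals called 68 higher and 77 lower, and the replicate block 204 and 573. With no filter, 248 of 28195 were called higher and 823 lower. Of the 17 member calls, 9 were kept with the replicate block. Leaving out 1 library gave 573 to 827 transcripts, 3 to 6 members higher and 6 to 16 lower. Between VB type 3 and type 1, DESeq2 called 21 and the likelihood ratio test 24 transcripts, against 0. *Bradi2g49660.1* ranged from -0.96 to 3.74 over these fits, and its value changed sign from -0.35 to 3.74, with a call, without parenchyma replicate 3.

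Apart from the replicate block, the edgeR and DESeq2 fits did not treat replicate numbers as pairs, since only some of them went together. The rule, the arrangements and the replicate left out did compare VB types within a replicate number, and that matching was weak for number 2. Deviations from group means correlated at 0.22 to 0.49 between libraries of number 1, at 0.25 to 0.33 for number 3 and at -0.07 to 0.02 for number 2, and 6 of 9 VB libraries correlated best with their own number. Depth limits members with few pairs, above all in parenchyma replicate 3. The causes of these shifts were not tested.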
